A study of Rattus norvegicus with 16 samples.

Results

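The genes described here are the 8 subunits of the cytosolic chaperonin CCT, also called TRiC, on rat arrays: Tcp1, Cct2, Cct3, Cct4, Cct5, Cct6a, Cct7 and Cct8. They were chosen by gene name, and every probe that carries one of these names was used. This gave 10 probes of 30367 for 8 gene names of 26269, with 2 probes each for Tcp1 and Cct6a and 1 for every other subunit. All 10 probes were well above background on all 16 arrays, so no subunit was lost to a filter on dim signals.

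CCT is a barrel of a pair of stacked rings in which each ring is built from 1 copy of each subunit, and newly made proteins fold inside it. Actin and tubulin are its best known clients, and the prefoldin complex hands them over to it. Every subunit is the product of its own gene and holds a fixed place in the ring, so a complete particle needs all of them. Pdrg1, the gene silenced in this study, encodes a small protein of the prefoldin-like family.

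Rat hepatoma H35 cells, a line derived from a liver tumour, were transfected with SureSilencing plasmids that encode an shRNA, and cells that carried a plasmid were selected with G418 at 1.8 mg/ml. CN-10 is a stable clone with a negative control sequence, 3-44 is a stable clone with shRNA3 and 4-18 is a stable clone with shRNA4 (labelled shRNA3-44 and shRNA4-18), all kept in a further selection at 4 mg/ml. shRNA3T is a pool of cells that took up the shRNA3 plasmid transiently and went through the first selection alone (labelled shRNA3-trans). There were 4 biological replicates per group, each on a one-color Agilent array that read 200 ng of total RNA. Every group shares the H35 line, the transfection and G418, and each stable group is 1 clone, so differences between clones of 1 kind were not measured and the replicates give the spread within a clone or pool.

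Values are normalized log2 intensities, after background correction and quantile normalization between arrays. A difference was called when its adjusted p was under 0.05 in limma, with Benjamini-Hochberg adjustment over all probes, and a 2-fold limit is given beside it. The level of 1 probe is not set against that of another. The 75th percentile of spot signal lay between 1614 and 1946 on the 4-18 arrays and between 2328 and 3692 on the other 12 arrays, and no spot was saturated. Every group had 1 slide to itself, and 4-18 was scanned on a day of its own, which means that the effect of a slide and that of a group cannot be told apart. A lower share of expressing cells and less RNA per cell cannot be told apart either.

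The probe sequences that the results turn on are given 5′ to 3′ in lower case, with the positions that the array files list on the rn4 build. All are 60 bases long. The Cct4 probe spans 673 bases of the genome and the Cct5 probe 483, which places each of these across an exon junction, and the Tcp1 probe shown ends at a stop codon of its open frame.
Cct4 (A_44_P262192, chr14:103684405-103685077, plus strand): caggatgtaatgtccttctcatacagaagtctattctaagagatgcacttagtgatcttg
Tcp1 (A_64_P035058, chr1:42103626-42103685, minus strand): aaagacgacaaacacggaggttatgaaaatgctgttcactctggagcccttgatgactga
Cct3 (A_64_P034876, chr2:180434037-180434096, plus strand): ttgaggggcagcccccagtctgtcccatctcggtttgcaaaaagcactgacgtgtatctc
Cct2 (A_44_P215794, chr7:56395779-56395838, minus strand): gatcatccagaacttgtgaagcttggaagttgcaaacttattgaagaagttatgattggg
Cct5 (A_44_P318435, chr2:83684929-83685411, minus strand): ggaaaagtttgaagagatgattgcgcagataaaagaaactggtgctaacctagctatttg
Cct8 (A_44_P1009491, chr11:27233799-27233858, minus strand): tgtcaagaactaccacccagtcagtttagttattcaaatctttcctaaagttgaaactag

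The targeted gene Pdrg1 was lower on every array of the 3 silenced groups than on any CN-10 array. CN-10 read 13.64 ± 0.22 (SD, n = 4) for it on the log2 scale, 4-18 read 12.87 ± 0.87, 3-44 read 12.65 ± 0.51 and shRNA3T read 12.79 ± 0.27. The differences from CN-10 were -0.77, -0.99 and -0.85 in the same order (SE 0.34 each), with adjusted p in limma of 0.129, 0.105 and 0.143. Without scaling between arrays they were -1.51, -1.11 and -0.86 (adjusted p = 0.02, 0.419 and 0.586). Scaled to the 75th percentile they were -0.82, -0.95 and -0.98 (adjusted p = 0.0482, 0.0654 and 0.0406). Replicate 1 was the lowest array of every group for Pdrg1, and in 4-18 it read 11.57 where the other 3 arrays read 13.25 to 13.34. With replicate 1 left out of every group the differences were -0.41, -0.82 and -0.79, and all 3 were called (adjusted p = 0.00647, 0.000306 and 0.000212).

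After quantile normalization, Cct4 fell in 4-18, and 1 of the 2 Tcp1 probes fell with it. The count of subunits called in 4-18 was 1 of 8 or 2 of 8, depending on which probe stands for Tcp1. In 3-44 and in shRNA3T, Cct3 was the subunit that fell. Cct4 and Cct3 thus gave separate patterns, with Cct4 low in 4-18 alone among the 4 groups and Cct3 low, after quantile normalization, in the groups that carry shRNA3.

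**Figure D1:**
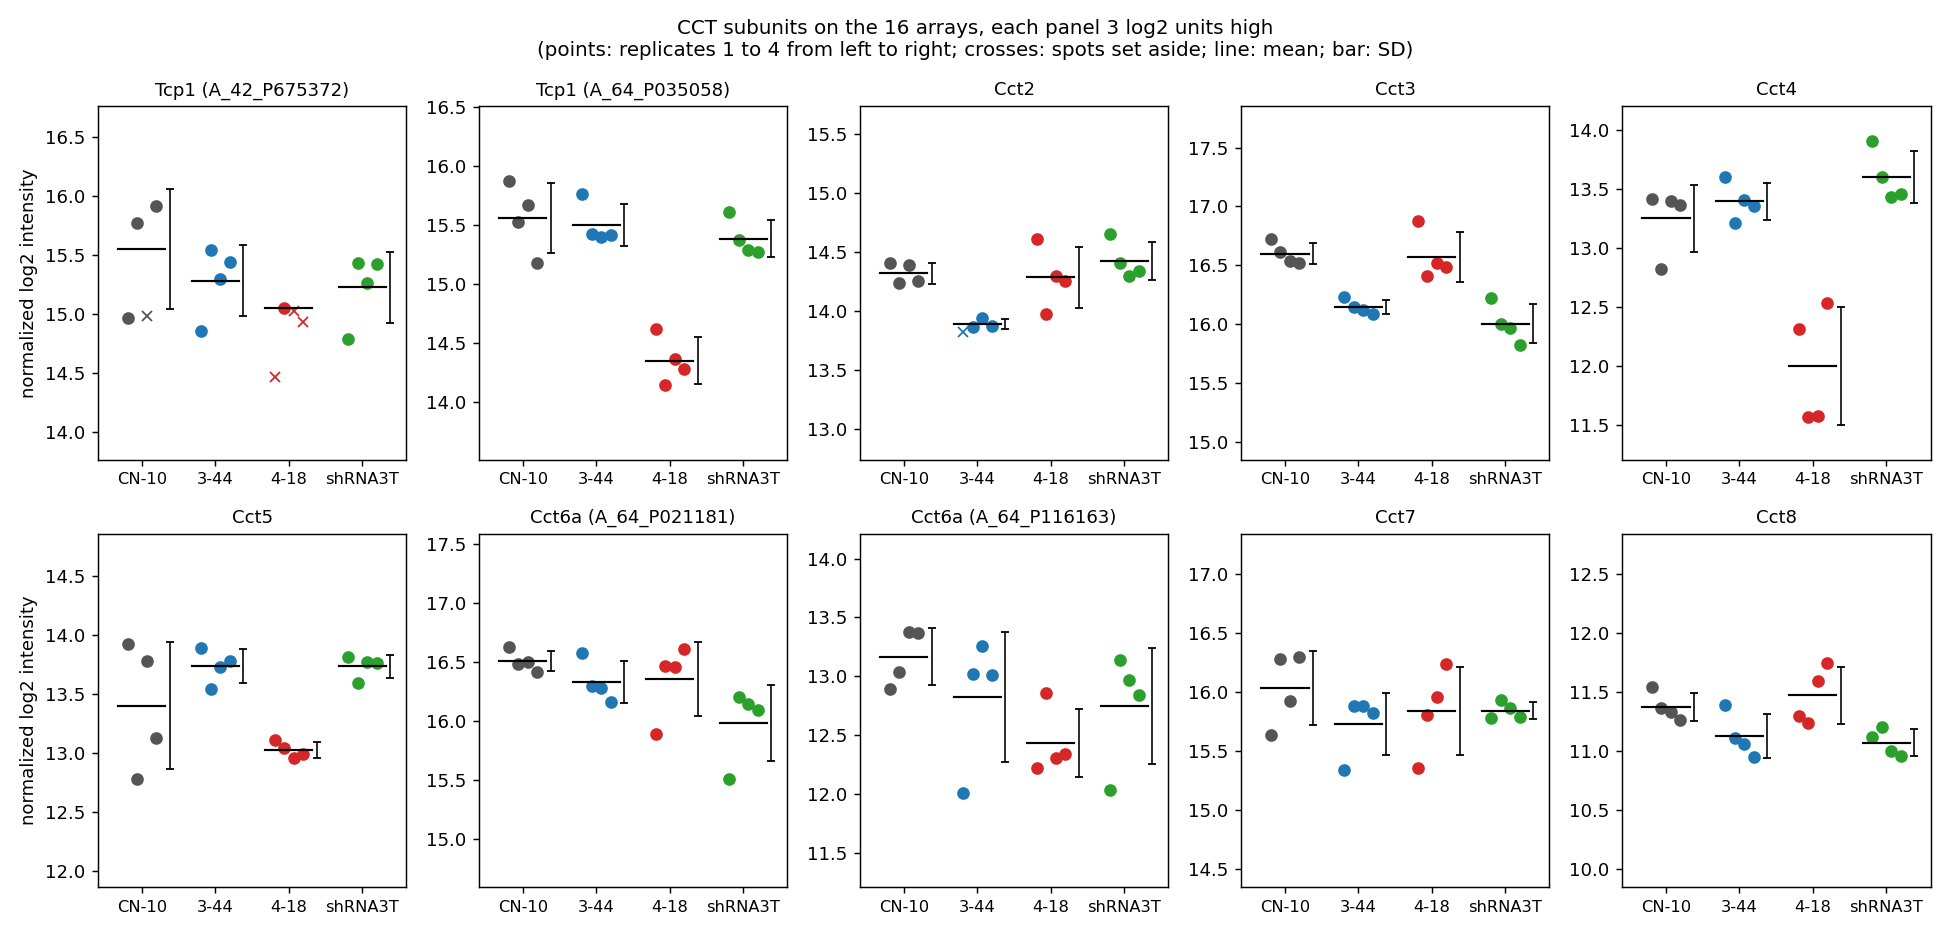
Normalized log2 intensity (y axis) of the 10 CCT probes on each array, by group (x axis), with replicates 1 to 4 from left to right, the mean as a line and the SD as a bar. Crosses are spots that the scanner software marked as outliers and that were left out of means and tests. The 4-18 arrays of Cct4 and of Tcp1 probe A_64_P035058 lie below all arrays of the other groups, and the 3-44 and shRNA3T arrays of Cct3 lie below those of CN-10 and 4-18 after quantile normalization.

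Cct4 encodes the delta subunit of the ring. Its log2 intensity was 13.42, 12.82, 13.40 and 13.37 in CN-10 and 13.60, 13.21, 13.41 and 13.36 in 3-44. It was 13.91, 13.60, 13.44 and 13.46 in shRNA3T and 12.31, 11.57, 11.57 and 12.54 in 4-18. The highest 4-18 array lay under the lowest array of each other group, and replicate 2 was the lowest in CN-10. All shRNA3T arrays lay above CN-10, by a margin smaller than the spread within either group, and that difference did not pass the test (0.35, SE 0.21, adjusted p = 0.367 in limma). The level in 4-18 was 41.9% of that in CN-10, a log2 fold change of -1.25 (SE 0.21, 95% confidence interval -1.70 to -0.81, adjusted p = 0.00043 in limma). A two-sided exact permutation test gave p = 0.0286, the smallest that 4 arrays against 4 allow.

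Cct4 also passed the 2-fold limit, which 5.91% of all probes did in this comparison in either direction. With each subunit read by its probe of highest mean it was the single one of 8 called, and with Tcp1 read by its other probe, a choice made after seeing the data, 2 were called and past 2-fold, against 12.0% of all probes called lower and 11.6% called higher. Among the probes above background on all 16 arrays, 38.0% were called in either direction. The share of subunits called was therefore not above that of other bright probes. Cct4 stayed called and lower under all 31 alternatives tried, with log2 fold changes from -2.02 to -0.91.

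Tcp1 encodes the alpha subunit, and its 2 probes lie close together on chromosome 1. Probe A_42_P675372 lies farther toward the 3′ end, holds a polyadenylation signal and has no reading frame free of stop codons. It could be read on a single 4-18 array because 3 of its 4-18 spots were marked as outliers. Its log2 fold change in 4-18 was -0.51 (SE 0.38, adjusted p = 0.399 in limma, n = 1 in 4-18 and n = 3 in CN-10). The lone 4-18 array is assumed in the fit to vary like the other groups. This probe stood for Tcp1 in the counts because its mean over the arrays with a value was higher (15.31 against 15.20 for the other probe). That order turned with outlier spots kept (15.197 against 15.2003) and over the other 3 groups alone (15.34 against 15.48).

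The other Tcp1 probe, A_64_P035058, had no spot left out. It read 15.88, 15.53, 15.67 and 15.18 in CN-10 and 14.62, 14.14, 14.36 and 14.28 in 4-18, so the groups did not overlap. It fell by 1.21 on the log2 scale in 4-18 (SE 0.14, adjusted p = 2e-05 in limma, exact permutation p = 0.0286), to 43.2% of CN-10. It stayed called in all 30 alternatives that read it, with log2 fold changes from -1.91 to -0.61, so the 2-fold mark was not passed in all of them. In 3-44 it read 15.76, 15.43, 15.40 and 15.41 and in shRNA3T 15.61, 15.37, 15.29 and 15.28, and neither group passed the test against CN-10 (log2 fold changes -0.06 and -0.18, SE 0.14, adjusted p = 0.877 and 0.559). With the outlier spots kept, A_42_P675372 read 14.46, 15.05, 15.02 and 14.93 in 4-18 and its difference from CN-10 was -0.54 (adjusted p = 0.112), so the 2 Tcp1 probes gave one direction and differed in size.

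Cct3 encodes the gamma subunit. It read 16.72, 16.61, 16.54 and 16.52 in CN-10 and 16.88, 16.41, 16.52 and 16.48 in 4-18. It read 16.23, 16.14, 16.12 and 16.09 in 3-44 and 16.22, 16.003, 15.96 and 15.83 in shRNA3T. All 8 arrays with shRNA3 lay below all 8 of CN-10 and 4-18. Cct3 fell by 0.45 in 3-44 (SE 0.10, adjusted p = 0.0135 in limma), to 73.1% of CN-10. It fell by 0.60 in shRNA3T (SE 0.10, adjusted p = 0.00129), to 66.2%, and the exact permutation p was 0.0286 for each group. In 4-18 its difference was -0.03 (95% confidence interval -0.25 to 0.19). After quantile normalization the groups in order of level were CN-10, 4-18, 3-44 and shRNA3T, and the neighbours CN-10 and 4-18 did not differ beyond their spread, nor did 3-44 and shRNA3T (0.14, SE 0.10, adjusted p = 0.467). Without scaling Cct3 was lowest in 4-18, at -0.61 against CN-10, with -0.45 in 3-44 and -0.47 in the pool shRNA3T.

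Cct3 was the single subunit called in 3-44, where 4.37% of all probes were lower, 3.48% higher and 1.40% past the 2-fold limit as well. It was again the single one in shRNA3T, where the same shares were 6.85%, 5.0% and 2.29%. Among bright probes 13.9% were called in 3-44 and 21.0% in shRNA3T. The subunits whose arrays did not overlap with CN-10, counted by their probes of highest mean, were 1 in 4-18 (2 with the other Tcp1 probe), 2 in 3-44 and 4 in shRNA3T. Of all probes 23.0%, 16.1% and 21.9% did not overlap in the same order, and of bright probes 35.2%, 24.6% and 34.6%. The 8 subunits had a median log2 fold change of -0.17 in 4-18, -0.26 in 3-44 and -0.25 in shRNA3T, or -0.17, -0.21 and -0.19 with the other Tcp1 probe. The medians of all probes were 0.006, -0.003 and -0.007. After quantile normalization, 5 to 7 subunits had a value below 0 in each of these comparisons. The 3 comparisons share the CN-10 arrays, so their medians are not independent. In 4-18 the median of the subunits turned with the scaling. It was 0.06, with 3 of 8 subunits below 0 and all probes at 0.20, when arrays were scaled to the 75th percentile of the processed signal, and -0.78, with 8 of 8 below 0 and all probes at 0.15, without scaling and in the authors' series values. Cct3 was called in 27 of 31 alternatives in each shRNA3 group and kept its direction in all of them. It was not called when arrays were scaled to the 75th percentile, to the median of probes above background or not at all, nor in the authors' series values.

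**Figure D2:**
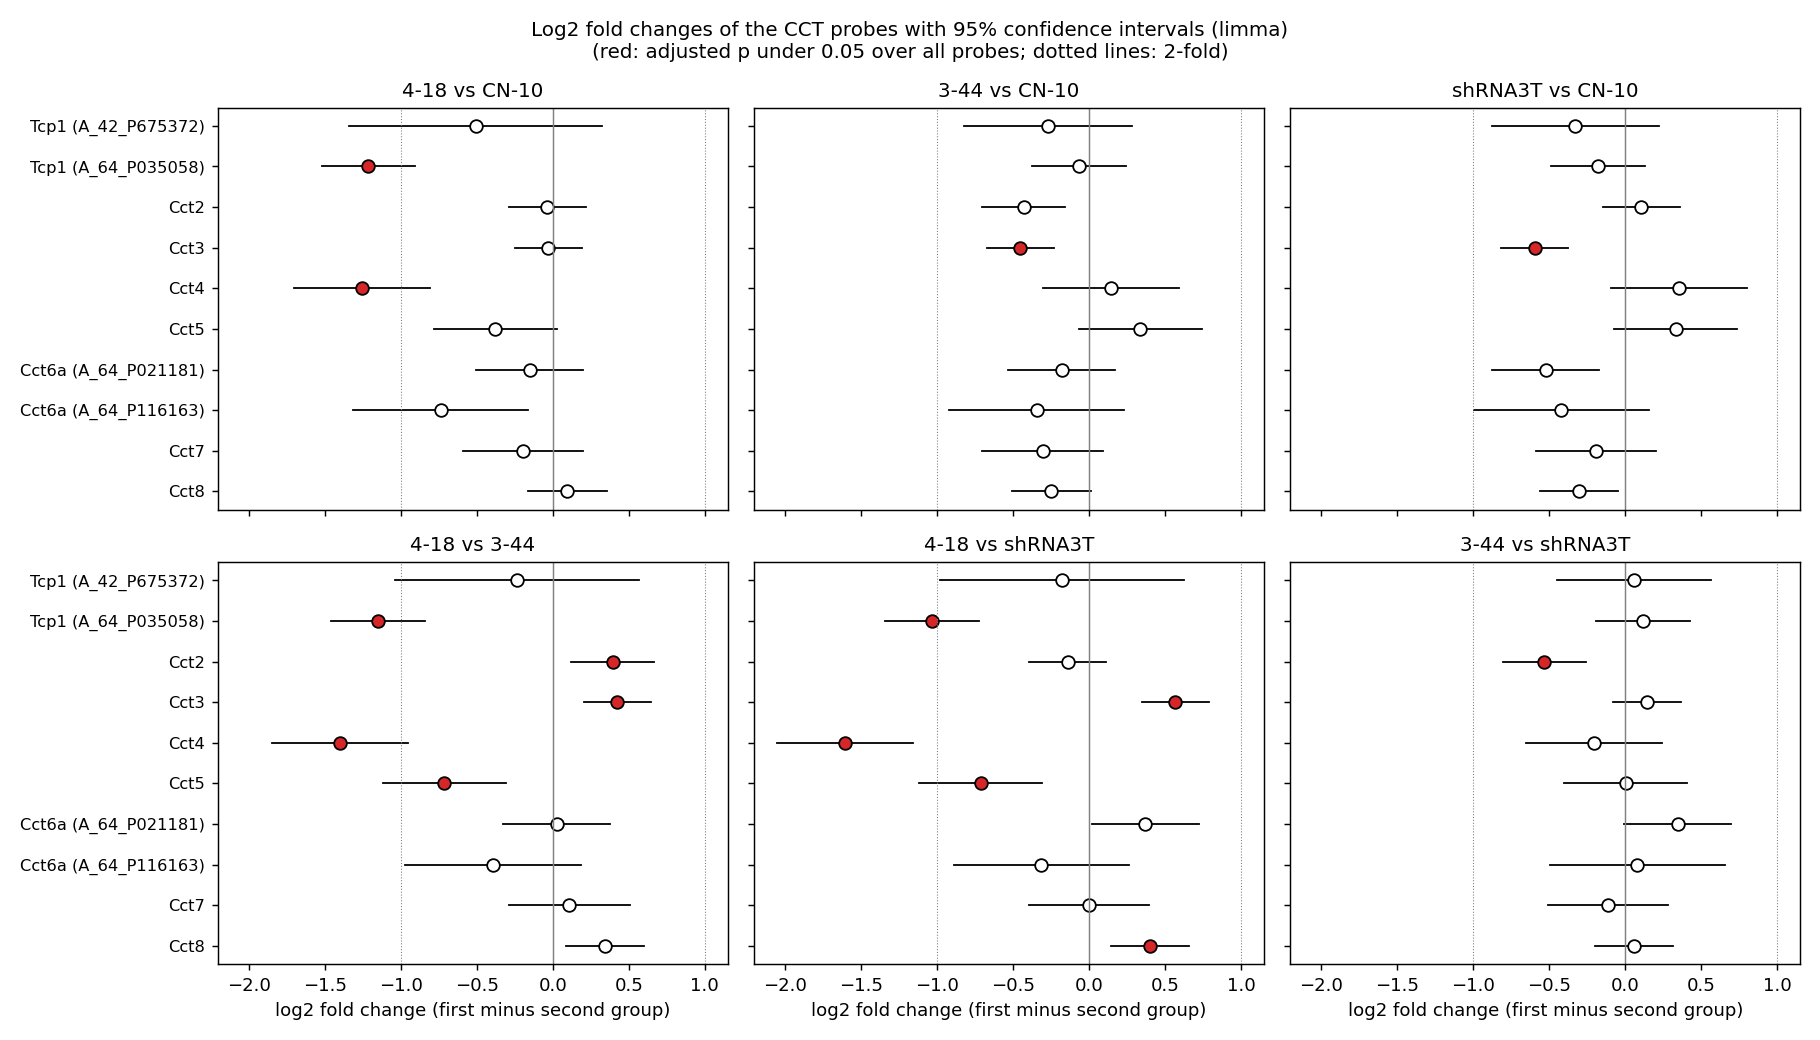
Log2 fold changes (x axis) of the 10 CCT probes (y axis) in the 6 comparisons, with 95% confidence intervals from limma, red where the adjusted p was under 0.05 and dotted lines at 2-fold. Cct4 and Tcp1 probe A_64_P035058 lie at or beyond the lower 2-fold line in the 3 comparisons with 4-18, and Cct3 is red on the lower side in both shRNA3 groups and on the upper side where 4-18 is compared with them, a side that turned without scaling between arrays.

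Cct2, the beta subunit, was the lowest in 3-44 after quantile normalization. It read 14.41, 14.23, 14.39 and 14.25 in CN-10 and 13.86, 13.94 and 13.87 in 3-44, without replicate 1, whose spot the scanner software had marked as deviant. It read 14.61, 13.97, 14.30 and 14.26 in 4-18 and 14.66, 14.41, 14.30 and 14.34 in shRNA3T. The 3 arrays of 3-44 lay below all other arrays. Against CN-10 the difference was -0.43 (SE 0.13) with an adjusted p of 0.0554 in limma, and with the outlier spots kept it was -0.45 and called (adjusted p = 0.0249). Without scaling between arrays 4-18 was the lowest group instead, with Cct2 at -0.75 against CN-10 (adjusted p = 0.0335, called) where 3-44 was at -0.47.

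Cct5, the epsilon subunit, read 13.92, 12.78, 13.78 and 13.12 in CN-10, a wider spread than in any other group (SD 0.54). It read 13.11, 13.05, 12.96 and 12.99 in 4-18, below every array of 3-44 (13.54 to 13.90) and of shRNA3T (13.60 to 13.82). Its difference from CN-10 in 4-18 was -0.38 (SE 0.19, adjusted p = 0.177 in limma), and without replicate 2 of CN-10 it was -0.59 and called (adjusted p = 0.014). It was also called without scaling between arrays (-1.12, adjusted p = 0.00569) and in the authors' series values. Over the 31 alternatives the difference of Cct5 lay between -1.15 and 0.08, and 3 of them called it.

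Cct8, the theta subunit, read 11.54, 11.36, 11.33 and 11.27 in CN-10, 11.39, 11.11, 11.06 and 10.95 in 3-44, 11.30, 11.24, 11.60 and 11.75 in 4-18 and 11.12, 11.21, 11.002 and 10.96 in the pool shRNA3T. After quantile normalization it was highest in 4-18 and lowest in shRNA3T, and no difference from CN-10 passed the test. Without scaling 4-18 was the lowest group, with Cct8 at -0.63 against CN-10, -0.37 in 3-44 and -0.29 in the pool shRNA3T. In shRNA3T the groups did not overlap, and the difference was -0.31 (SE 0.12, adjusted p = 0.132 in limma).

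Cct6a encodes the zeta subunit and was read by 2 probes. The brighter one, A_64_P021181, read 16.51 ± 0.09 (SD, n = 4) in CN-10, 16.33 ± 0.18 in 3-44, 16.36 ± 0.32 in 4-18 and 15.99 ± 0.32 in the pool shRNA3T. All 4 shRNA3T arrays lay below CN-10, at 15.51, 16.20, 16.14 and 16.09, with a difference of -0.52 (SE 0.16, adjusted p = 0.0526 in limma). The other probe, A_64_P116163, was lowest in 4-18 at 12.22, 12.86, 12.31 and 12.34, all below CN-10 (12.89 to 13.38), with a difference of -0.74 (SE 0.27, adjusted p = 0.0626). After quantile normalization the 2 probes thus placed the lowest group differently, and neither passed the test against CN-10. Without scaling between arrays both were lowest in 4-18, at -0.73 for A_64_P021181 and -1.48 for A_64_P116163 (adjusted p = 0.0982 and 0.0113 in limma). A_64_P116163 was called in 4-18 in 13 of 30 alternatives, and A_64_P021181 in shRNA3T in 7 of 31.

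Cct7, the eta subunit, overlapped in all groups. It read 16.04 ± 0.32 (SD, n = 4) in CN-10, 15.73 ± 0.26 in 3-44, 15.84 ± 0.37 in 4-18 and 15.84 ± 0.07 in the pool shRNA3T. After quantile normalization its largest difference from CN-10 was -0.31 in 3-44 (95% confidence interval -0.70 to 0.09), so a fall by up to 0.70 is within that interval. Without scaling the largest was -0.81 in 4-18 (adjusted p = 0.0766 in limma), with -0.30 in 3-44.

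Between the silenced groups, 4-18 differed from 3-44 in 4 subunits, or in 5 with Tcp1 read by A_64_P035058. Cct4 (-1.40, adjusted p = 0.000187 in limma) and Cct5 (-0.71, adjusted p = 0.0131) were lower in 4-18. Cct2 (0.39, adjusted p = 0.0393) and Cct3 (0.42, adjusted p = 0.00792) were higher in 4-18. Of all probes 12.1% were called higher in this comparison, 10.0% lower and 4.81% past the 2-fold limit, and 37.3% of bright probes were called. That Tcp1 probe was lower (-1.15, adjusted p = 3.86e-05).

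Against shRNA3T, 4-18 was lower in Cct4 (-1.61, adjusted p = 6.05e-05 in limma) and Cct5 (-0.71, adjusted p = 0.0143), and higher in Cct3 (0.57, adjusted p = 0.00107) and Cct8 (0.40, adjusted p = 0.0282). Of all probes 11.2% were called higher, 8.94% lower and 4.32% past the 2-fold limit, and 34.6% of bright probes were called. Tcp1 probe A_64_P035058 was again lower (-1.04, adjusted p = 0.000114), which makes 5 subunits called with this probe. Cct4 and this Tcp1 probe were the CCT probes past 2-fold in both comparisons. The higher values of Cct2, Cct3 and Cct8 in 4-18 turned negative without scaling between arrays, where 2 subunits, Cct4 and Cct5, were called between 4-18 and 3-44. Scaled to the 75th percentile, Cct5 was not called in 4-18 against 3-44 (-0.08, adjusted p = 0.763) or against shRNA3T (-0.24, adjusted p = 0.283), and Cct4 was the single subunit called by its probe of highest mean.

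The 2 groups that share shRNA3 differed in Cct2, which was lower in the clone 3-44 than in the pool shRNA3T (-0.53, SE 0.13, adjusted p = 0.0145 in limma). Of all probes 5.33% were higher in this comparison, 5.31% lower and 2.00% past the 2-fold limit, and 19.0% of bright probes were called. The other 7 subunits did not pass the test, with differences between -0.21 for Cct4 and 0.34 for Cct6a.

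Part of the spread within groups followed the replicate number. Replicate 1 was the highest array of its group in 4 of 4 groups for Cct3, Cct5 and Tcp1 probe A_64_P035058. It was the lowest in 4 of 4 groups for Cct7, Cct6a probe A_64_P116163 and Pdrg1. The 2 Tcp1 probes went opposite ways, since A_42_P675372 was lowest on replicate 1 in all 3 groups where it had more than 1 array. What replicate 1 shares across groups is not given in the sources used here.

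**Figure D3:**
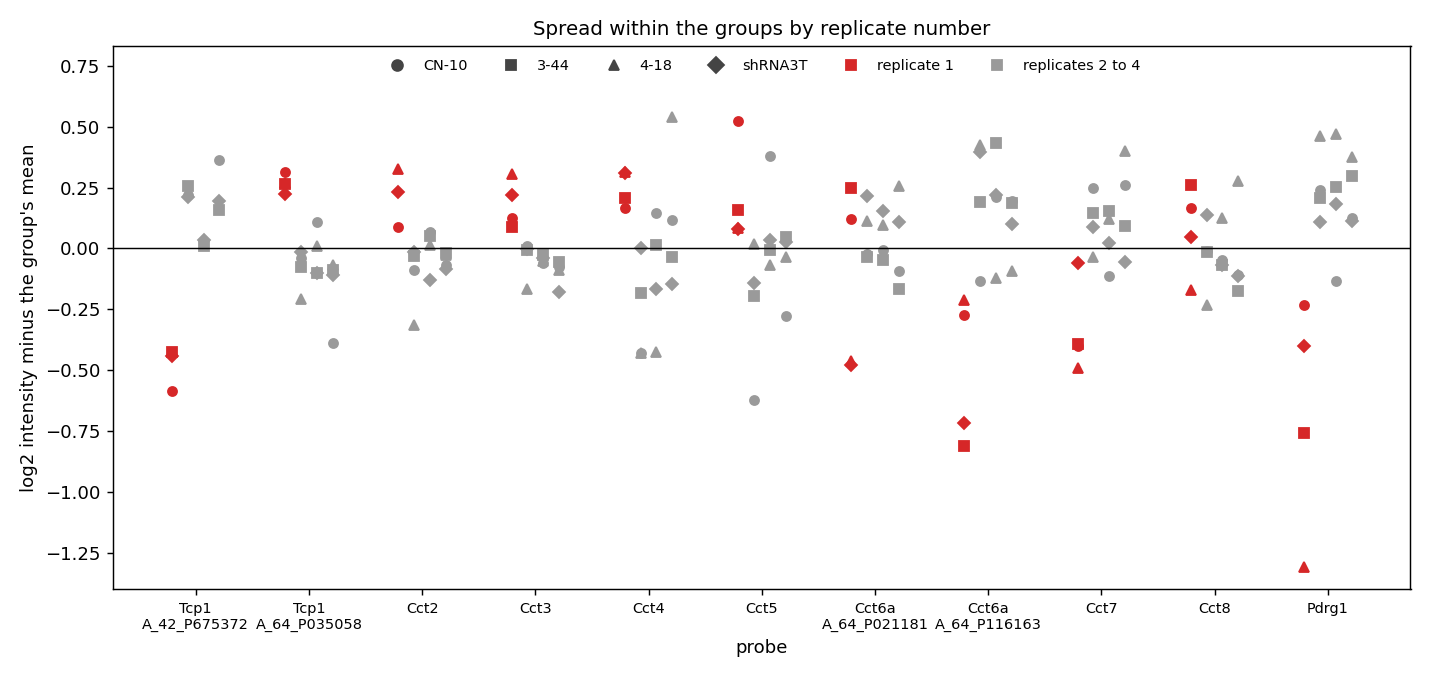
Difference of each array from the mean of its group in log2 intensity (y axis) for the 10 CCT probes and Pdrg1 (x axis), with replicate 1 in red and replicates 2 to 4 in grey, and the group shown by the shape of the point. The red points lie on the upper side for Cct3, Cct5 and Tcp1 probe A_64_P035058 and on the lower side for Cct7, Cct6a probe A_64_P116163 and Pdrg1.

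With replicate 1 left out of every group, Cct4 was called in 4-18 (-1.30, adjusted p = 0.00233 in limma). So were Tcp1 probe A_64_P035058 (-1.20, adjusted p = 2.64e-05) and Cct6a probe A_64_P116163 (-0.76, adjusted p = 0.00483). Tcp1 probe A_42_P675372 was at -0.80, with n = 1 in 4-18. In 3-44, Cct2 (-0.40, adjusted p = 0.0188) and Tcp1 probe A_42_P675372 (-0.42, adjusted p = 0.0488) were then called beside Cct3. In shRNA3T, Cct6a (-0.32, adjusted p = 0.0106) and Tcp1 probe A_42_P675372 (-0.47, adjusted p = 0.024) were called beside Cct3. In CN-10, A_42_P675372 then rested on replicates 2 and 4 (15.77 and 15.92), because the flagged value of replicate 3 (14.98) was not used. The other Tcp1 probe, A_64_P035058, was not called in 3-44 (-0.05, adjusted p = 0.878) or shRNA3T (-0.15, adjusted p = 0.509). The call of Tcp1 in these groups thus depended on the probe. Of bright probes, 41.8% were called in 4-18, 18.2% in 3-44 and 25.3% in shRNA3T.

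The spread of the CCT probes was wider than that of other bright probes in CN-10 and slightly narrower in the silenced groups. Their median SD over replicates was 0.26 in CN-10, 0.18 in 3-44, 0.26 in 4-18 (over 9 probes) and 0.16 in the pool shRNA3T. Over the 13551 probes above background on all arrays it was 0.18, 0.21, 0.28 and 0.17 in the same order. The difference was not tested.

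How far the subunits moved together over the arrays depended on the Tcp1 probe. With A_42_P675372, Pearson's r of each subunit with the mean of the other 7 lay between -0.23 for Cct3 and 0.002 for Cct2, over 12 to 16 arrays. With A_64_P035058 it was 0.73 for Tcp1, 0.51 for Cct4, 0.40 for Cct5 and 0.12 for Cct2, and between -0.25 and -0.10 for Cct3, Cct6a, Cct7 and Cct8, over 15 or 16 arrays. The arrays share 4 groups, and these values are a description with no test. The mean centred profile of the subunits was 0.15 ± 0.06 (SD, n = 4) in CN-10, -0.01 ± 0.04 in 3-44, 0.005 ± 0.04 in shRNA3T and -0.14 ± 0.14 in 4-18, and with A_64_P035058 it was 0.16 ± 0.12, 0.03 ± 0.11, 0.04 ± 0.06 and -0.23 ± 0.13 in the same order. Of 11933 other genes, the one most like the profile with either probe was Lrp10 (r = 0.92 and 0.95). Of the 5 most like it and the 5 most opposed, 1 each was shared between the probes, Lrp10 and Oplah (r = -0.87 and -0.95). The others ranked with the first probe were the unnamed transcript ENSRNOT00000008592, Agpat5, an acyltransferase of phospholipid synthesis, the unnamed probe A_64_P017946 and Sdhaf2, an assembly factor of succinate dehydrogenase, at r of 0.90 to 0.92, and Ubn1, Edc4, a factor of mRNA decapping, Msl1 and Bhlhe40, a transcriptional repressor, at -0.94 to -0.88. Each r is over 15 or 16 arrays and describes this ranking, with no test.

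The upstream sequences of Cct4, Tcp1 and Cct3 are shown because these genes gave the differences above. They are the 250 bases before the annotated start of each gene in RefSeq on the GRCr8 assembly, another build than that of the probe positions, 5′ to 3′ along the gene. Capitals mark the motifs searched on both strands: CCAAT (the CCAAT box), GGGCGG (the GC box), CACGTG (the E-box), TGACGTCA (the cAMP response element) and GAANNTTC (the core of a heat shock element). None of these overlapped another in the sequences shown.
Cct4 (chr14:101192807-101193056, plus strand): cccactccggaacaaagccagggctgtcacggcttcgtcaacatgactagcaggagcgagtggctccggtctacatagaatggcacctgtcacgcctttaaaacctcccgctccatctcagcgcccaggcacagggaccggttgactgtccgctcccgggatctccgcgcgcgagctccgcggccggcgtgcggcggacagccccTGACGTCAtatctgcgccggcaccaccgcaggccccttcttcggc
Tcp1 (chr1:50384528-50384777, minus strand): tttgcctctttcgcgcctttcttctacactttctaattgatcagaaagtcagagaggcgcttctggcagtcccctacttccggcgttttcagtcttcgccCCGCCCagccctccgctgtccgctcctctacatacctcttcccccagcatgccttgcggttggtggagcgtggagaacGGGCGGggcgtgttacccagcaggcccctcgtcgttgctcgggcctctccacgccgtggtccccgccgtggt
Cct3 (chr2:176063279-176063528, plus strand): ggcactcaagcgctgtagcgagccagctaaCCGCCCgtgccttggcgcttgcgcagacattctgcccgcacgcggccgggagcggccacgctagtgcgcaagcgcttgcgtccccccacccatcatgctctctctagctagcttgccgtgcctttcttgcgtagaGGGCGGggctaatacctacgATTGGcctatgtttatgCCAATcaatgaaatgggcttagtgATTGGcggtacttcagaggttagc

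Cct4 was the subunit whose upstream window held TGACGTCA, which 1.59% of 33469 windows of this length hold, and it held none of the other motifs. Tcp1 held GGGCGG and no CCAAT, and Cct3 held both. Over the 8 subunits, CCAAT was found in 5 (34.0% of all windows), GGGCGG in 5 (30.5%), and CACGTG (5.59%) and GAANNTTC (7.23%) in none. The GC content of the windows was 49.2% to 66.4%, with a median of 51.2% over all. Cct4 and Tcp1, which were both low in 4-18 (Tcp1 called by probe A_64_P035058 and not by A_42_P675372), shared none of these motifs in this window. A match is a description of the letters and not a site of binding.

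Actin and tubulin fold inside CCT. Of the 19 actin and tubulin genes, 11 fell and 2 rose in 4-18, 1 fell and 2 rose in 3-44, and 7 fell and 1 rose in shRNA3T, with list medians of -0.54, -0.11 and -0.24. Of all probes, 12.0% were called lower and 11.6% higher in 4-18, 4.37% and 3.48% in 3-44, and 6.85% and 5.0% in shRNA3T. Of bright probes, 38.0%, 13.9% and 21.0% were called in either direction in the same groups. The 3 genes of 19 called in 3-44 are near that share. The β-tubulin genes Tubb2a (-1.48, SE 0.16, adjusted p = 1.43e-05 in limma) and Tubb6 (-1.45, SE 0.17, adjusted p = 1.52e-05) and the α-tubulin gene Tuba1b (-1.16, SE 0.17, adjusted p = 0.00017) fell past 2-fold in 4-18. In shRNA3T, Tubb2c, a β-tubulin gene now called Tubb4b, fell past 2-fold (-1.10, adjusted p = 0.000811). In 3-44 the α-tubulin genes Tuba1a (0.59, adjusted p = 0.00293) and Tuba8 (0.47, adjusted p = 0.0131) rose and Tubb4 fell (-0.53, adjusted p = 0.0106), where Tuba8 and Tubb4 were each called in 1 of the 5 other scalings. Tuba1a fell in 4-18 (-0.54, adjusted p = 0.00185).

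The other probe of Tuba1b gave the same direction as the first (-1.07 in 4-18 and -0.75 in shRNA3T). Tubulin genes resemble each other closely, and how far a probe reads its relatives was not tested. Tubb2a, Tubb6 and Tuba1b kept their direction and call in 4-18 under all 5 other scalings, under which 7 to 12 genes of the list fell. Of the 11, Acta1 turned positive in 3 of the 5 (no scaling, the median of probes above background and the series values) and Acta2 in 1, and Tubg1, which is among the 2 that rose, turned negative without scaling. In shRNA3T the other scalings gave 0 to 6 genes that fell, and in 3-44 the list median was 0.08 when scaled to the 75th percentile.

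**Figure D4:**
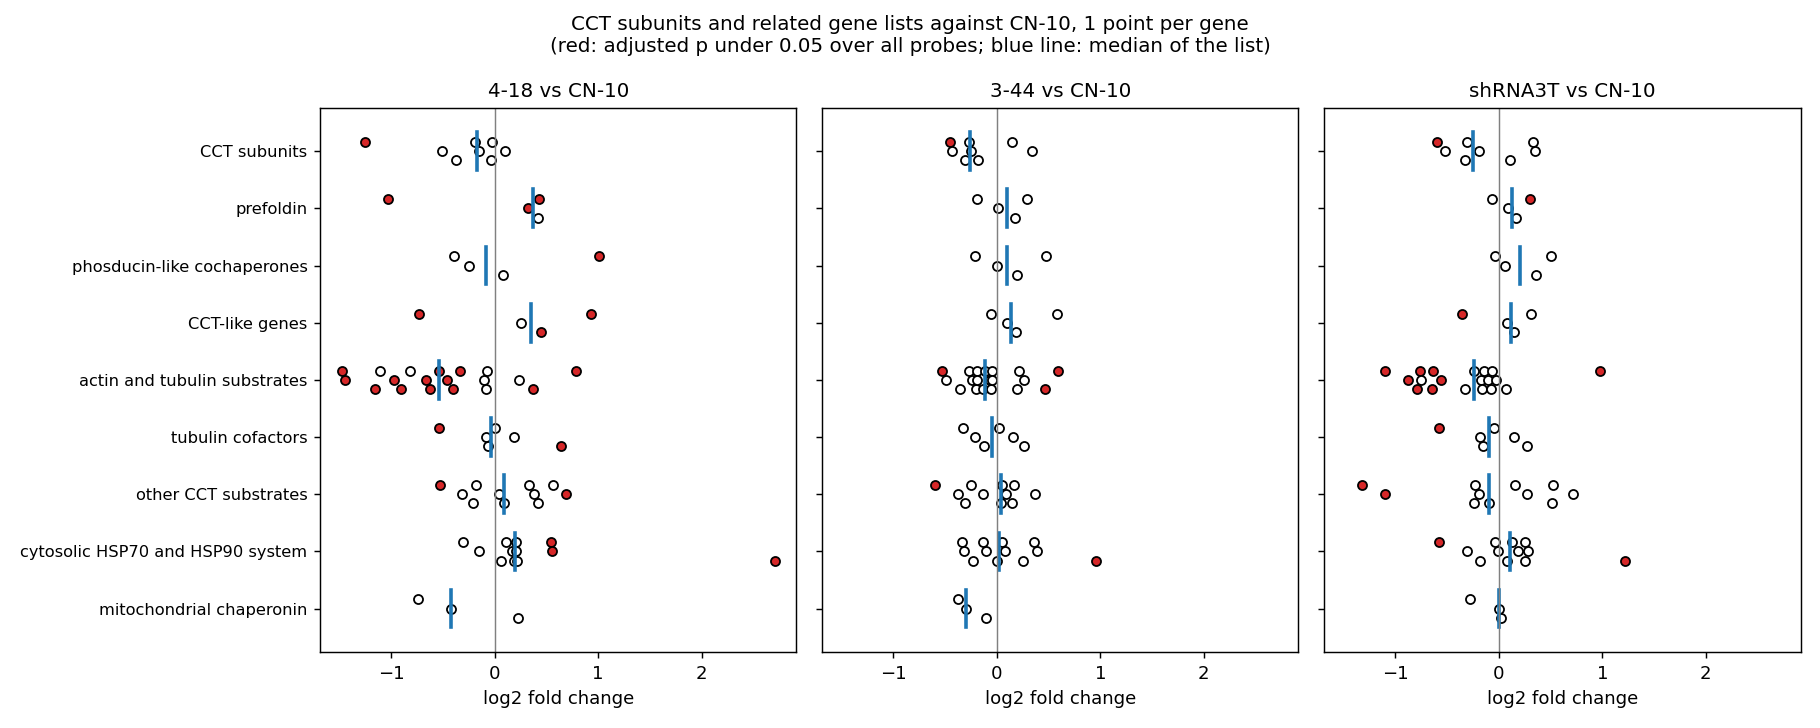
Log2 fold changes against CN-10 (x axis) of the CCT subunits and of 8 related gene lists (y axis) in the 3 comparisons, 1 point per gene by its brightest probe, red where the adjusted p was under 0.05, with the median of each list as a blue line. The list named mitochondrial chaperonin also holds Hspa9, the mitochondrial HSP70. The actin and tubulin genes have the most red points below 0 in 4-18 and shRNA3T, and the point farthest to the right in each panel is Hspa1b.

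Prefoldin delivers the clients, and 4 of its 6 genes were found on the array by name. In 4-18, Pfdn1 (0.43, adjusted p = 0.00402 in limma) and Pfdn5 (0.33, adjusted p = 0.0173) rose and Pfdn6 fell past 2-fold (-1.03, SE 0.19, adjusted p = 0.000807). Without scaling between arrays Pfdn1 and Pfdn5 turned negative, at -0.31 and -0.41 at the lowest, Pfdn5 was called in 0 of the 5 other scalings and Pfdn1 in 3, and Pfdn6 stayed called and lower under all 5 other scalings. In shRNA3T, Pfdn5 rose (0.30, adjusted p = 0.0489) and was called in 0 of the 5 other scalings. In 3-44 none of the 4 passed, and 1 had an unadjusted p under 0.05. The shares to set beside this list and those that follow are 38.0% of bright probes called in 4-18, 13.9% in 3-44 and 21.0% in shRNA3T.

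The phosducin-like proteins bind CCT and tune its work. Of 4 genes, Pdcl3 rose past 2-fold in 4-18 by its brighter probe (1.01, adjusted p = 0.00162 in limma, called in 2 of the 5 other scalings). Its other probe fell (-0.56, adjusted p = 0.0473), so the direction of Pdcl3 depends on the probe. None of the 4 passed in 3-44 or shRNA3T, where 1 and 0 had an unadjusted p under 0.05. Among the 4 CCT-like genes, Bbs10 (0.93, adjusted p = 0.00313) and Cct6b (0.45, adjusted p = 0.0133, above background on 9 arrays) rose in 4-18. Of the 5 other scalings, 3 called Bbs10 and 2 called Cct6b. Mkks fell in 4-18 (-0.73, adjusted p = 5.3e-06) and in the pool shRNA3T (-0.35, adjusted p = 0.00631, called in 1 of the 5 other scalings). Bbs10 and Mkks belong to the chaperonin-like proteins of the Bardet-Biedl group. None of these 4 passed in 3-44, where 1 had an unadjusted p under 0.05.

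The tubulin cofactors take tubulin from CCT and join its α and β chains. Of 6, Tbcd rose in 4-18 (0.64, adjusted p = 7.95e-06 in limma) and Tbcc fell (-0.54, adjusted p = 0.00132). Tbcd turned to -0.07 at the lowest without scaling between arrays, and its other probe read 0.06. Tbcb fell in shRNA3T (-0.58, adjusted p = 0.00104, called in 1 of the 5 other scalings), and in 3-44 none of the 6 passed, with 1 at an unadjusted p under 0.05. Of the 11 other clients, Plk1, a mitotic kinase, fell in shRNA3T (-1.32, adjusted p = 1.67e-05) and also in 4-18 (-0.53, adjusted p = 0.0109). Cdc20, an activator of the anaphase-promoting complex, fell in shRNA3T (-1.11, adjusted p = 0.00145). Vhl rose in 4-18 (0.69, adjusted p = 0.0161, and -0.11 at the lowest without scaling), and Ppp2r2a, a regulatory subunit of protein phosphatase 2A, fell in 3-44 (-0.60, adjusted p = 0.0132, called in 1 of the 5 other scalings).

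HSP70 hands some clients on to CCT. Of the 14 genes listed for the HSP70 and HSP90 system, 12 were found on the array by name. Hspa1b, the inducible HSP70, rose in 4-18 (2.71, SE 0.11, adjusted p = 3.04e-10 in limma), in the pool shRNA3T (1.22, adjusted p = 5.04e-06) and in 3-44 (0.96, adjusted p = 7.53e-05). Its log2 intensity was 9.78, 8.29 and 8.03 in these groups and 7.08 in CN-10, and its other probe was above background on 0 arrays. Dnaja1, an HSP40 partner (0.55, adjusted p = 0.000686), and St13 (0.55, adjusted p = 0.049) rose in 4-18, and both were below 0 without scaling between arrays (-0.17 and -0.20 at the lowest). Ptges3, the HSP90 partner p23, fell in shRNA3T (-0.58, adjusted p = 0.023) and was called in 1 of the 5 other scalings. The other 8 genes, among them Hspa8 and Hsp90ab1, did not pass in any comparison with CN-10.

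The mitochondrial chaperonin folds proteins inside mitochondria and is built differently from CCT. Of its genes Hspd1 and Hspe1 and of Hspa9, the mitochondrial HSP70, listed with them, 0 of 3 passed in any comparison with CN-10 in limma after quantile normalization, and 2 were called lower in 4-18 without scaling and in the series values. An unadjusted p under 0.05 was found for 2 in 4-18, 1 in 3-44 and 0 in shRNA3T. The lowest value was that of Hspd1, the HSP60 gene, in 4-18 (-0.74, SE 0.26, adjusted p = 0.0504).

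The label of a liver line was checked against markers. Alb, the albumin gene, read 17.22 in CN-10 and all 10 hepatocyte markers were above background on 15 or 16 arrays. The leukocyte gene Ptprc, the fibroblast genes Dcn and Lum and the endothelial genes Pecam1 and Tek were above background on 0 arrays. Other genes of these lists were detected, with Cd14, Col1a1, Cdh5 and Vwf above background on 16 arrays, Cd68, Csf1r and Col1a2 on 15, Col3a1 on 7, Kdr on 6 and Cd3e on 1. Hepatocyte markers moved with the groups. In 4-18, 6 of 10 fell and 1 rose, and in 3-44 and shRNA3T, 4 rose, among them Ttr (2.93, 2.84 and 2.39 in 4-18, 3-44 and shRNA3T). Of all probes, 12.0% were called lower and 11.6% higher in 4-18, 4.37% and 3.48% in 3-44, and 6.85% and 5.0% in shRNA3T. Of bright probes, 38.0%, 13.9% and 21.0% were called in either direction in the same groups. Apoa1 fell in 4-18 (-2.12) and rose in 3-44 (2.18). The 2 probes of Ahsg went opposite ways in 4-18 (-1.29 and 1.03).

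The summed level of the hepatocyte markers lay at 18.84 to 19.21 on the log2 scale in CN-10, 18.48 to 19.03 in 4-18, 18.75 to 19.71 in 3-44 and 19.10 to 19.43 in the pool shRNA3T. Of the 5 leukocyte markers, Cd14, a gene that liver cells also express, rose in all 3 groups (0.81, 2.04 and 0.98 in 4-18, 3-44 and shRNA3T). Their summed level was 9.71 to 10.10 in CN-10, 10.20 to 10.41 in 4-18, 11.02 to 11.51 in 3-44 and 10.35 to 10.63 in the pool shRNA3T. Cd68 fell in 4-18 (-0.43), and was at 0.22 when scaled to the median of probes above background. Of the 5 fibroblast markers, Col1a1 rose in shRNA3T (0.52), with a summed level of 9.34 to 9.58 in CN-10 and 9.56 to 9.83 in shRNA3T. The 5 endothelial markers had sums of 9.63 to 10.31 in CN-10 and 9.55 to 10.04 in the silenced groups. The part of these markers in the CCT values was not tested.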

How the data were processed

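Total RNA of 16 cultures in 4 groups was read on one-color Agilent rat arrays. The authors deposited scanner files from Feature Extraction 10.7.3.1, whose mean signal and local background are intensity values on a linear scale, with probe positions on rn4. The authors also deposited a table of log2 values, which equals normexp of the median signal at offset 50 without scaling, to 4e-11 once lost decimal points were restored. The authors corrected background, normalized and tested with limma, using moderated statistics, a false discovery rate under 0.05 and a 2-fold limit. Their background and normalization methods are not given in the sources used here.

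From the scanner files, normexp background correction (offset 50) and quantile normalization were run in limma 3.58.1 (R 4.3.3, with version 1.17.8 of data.table). Control spots and spots marked as outliers were left out, and spots of a probe were averaged. The fit used all 16 arrays with 1 mean per group and 6 contrasts, and p-values were Benjamini-Hochberg adjusted over all 30367 probes. The number of arrays, 4 per group, limits the precision. The fit was tested on simulated data. The labels call the replicates biological without saying how the cultures were separated, so p-values measure only the spread between these samples, which may be technical.

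Each gene was represented by its probe with the highest mean, outlier spots aside, and Tcp1 also by its other probe. Named were all 8 subunits, Pdrg1, the genes of related lists past 2-fold against CN-10 and otherwise the 2 largest called changes of a list, and the 5 genes most and least like the mean profile. Other list and marker genes were named after their values were seen. Members and lists were chosen with earlier results of these data known. Alternatives covered background, scaling, spot and probe handling, array weights, the samples fitted, a replicate block, and leaving out each array. Upstream windows came from RefSeq on GRCr8.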

Additional observations from a re-analysis of the deposited data

Results flagged for a closer look

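In 37 sets of 4 values, each of 1 probe in 1 group, 4 values stood apart from the other 3 by Dixon's criterion. Chance alone passes it in about 1 in 20 independent sets, and these sets share the same 16 arrays, so they are not independent. These were replicate 1 of 3-44 for Tcp1 probe A_64_P035058 (highest, 15.76) and for Cct7 (lowest, 15.34), replicate 1 of shRNA3T for Cct6a probe A_64_P021181 (lowest, 15.51), and replicate 2 of CN-10 for Cct4 (lowest, 12.82). Of these 4 values, 3 come from arrays with the number 1, and replicate 1 of 3-44 is the array for both Tcp1 and Cct7.

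Differences between silenced groups were tested directly in limma. Between 4-18 and 3-44, Cct4 (-1.40), Tcp1 probe A_64_P035058 (-1.15) and Cct5 (-0.71) were lower in 4-18, and Cct2 (0.39) and Cct3 (0.42) were higher. Between 4-18 and shRNA3T, Cct4 (-1.61), Tcp1 probe A_64_P035058 (-1.04) and Cct5 (-0.71) were lower in 4-18, and Cct3 (0.57) and Cct8 (0.40) were higher. Between 3-44 and shRNA3T, Cct2 was lower in 3-44 (-0.53). The part that the slide, the clone or the dimmer 4-18 arrays had in these differences was not tested.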

How the results depend on the processing

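Each of 60 fold changes was set against up to 31 alternatives, of which 1677 values kept direction and side of the threshold, 62 passed it newly, 35 no longer passed and 8 turned where the value was called before or after. A further 63 changed sign without being called in either. Cct4 in its 3 comparisons with 4-18 was called under all alternatives run. The called values that turned were those of 4-18 without scaling between arrays, at -0.28 for Cct2 and -0.16 for Cct3 against 3-44 and -0.14 for Cct3 and -0.34 for Cct8 against shRNA3T, and in the authors' series values, at -0.30, -0.15, -0.14 and -0.33. The cause was not tested. Against CN-10, the median of all probes in 4-18 lay at 0.20 when scaled to the 75th percentile, 0.15 without scaling and 0.85 when scaled to the median of probes above background.

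The count of subunits called in 4-18 against CN-10 (1) was 3 without scaling and in the series values, and 2 with the mean of all probes of a gene, with Tcp1 by its other probe (chosen after seeing the data) or with replicate 1 of every group left out together. In 3-44 (1) it was 0 under the 75th percentile, no scaling, the median of probes above background, the series values and the 2-fold limit. It was 2 with outlier spots kept or only the groups compared, and 3 with array weights or without replicate 1. In shRNA3T (1) it was 0 under the same 5 settings and 2 with cyclic loess or only probes above background on all arrays. It was 3 with array weights, only the groups compared or without replicate 1. Without replicate 1, the counts of 3 in 3-44 and shRNA3T include Tcp1 by A_42_P675372, which was not called by A_64_P035058. Between 4-18 and 3-44 (4) the count was 1 under the 75th percentile or the 2-fold limit. It was 2 without scaling and in the series values. Without replicate 1, Cct6a (0.26, adjusted p = 0.0199 in limma) and Cct8 (0.49, adjusted p = 0.0138) joined these 4, where 40.8% of bright probes were called, against 37.3% in the main fit. Between 4-18 and shRNA3T (4) it was 1 under the 75th percentile or the 2-fold limit. Without scaling Cct4 and Cct5 stayed called, Cct2 was called lower (-0.80, adjusted p = 0.0256 in limma) and Cct3 and Cct8 were not called, with 28.2% of bright probes called. Between 3-44 and shRNA3T (1) it was 0 under the 75th percentile, no scaling, the median of probes above background, the series values and the 2-fold limit, and 2 with array weights. The share of bright probes called moved too. In 3-44 (13.9%) it was 28.8% with array weights, 18.2% without replicate 1, 15.6% with only the groups compared, 9.90% under the 75th percentile, 3.66% under the median of probes above background and 1.43% without scaling. In shRNA3T (21.0%) it was 41.1%, 25.3%, 29.1%, 18.7%, 7.47% and 3.01% in the same order, and between 3-44 and shRNA3T (19.0%) it was 38.9% with array weights and 2.69% without scaling. In 4-18 (38.0%) it was 31.9% without scaling. Leaving out single arrays, the counts ranged from 1 to 2 in each comparison with CN-10, from 3 to 5 in both comparisons of 4-18 with an shRNA3 group, and stayed at 1 between 3-44 and shRNA3T. Where 2 were called in 4-18 the array left out was replicate 2 of CN-10. In 3-44 it was replicate 1 or 2 of 4-18 or replicate 1 of shRNA3T, with Cct2 joining, and in shRNA3T it was replicate 1 of 3-44 or replicate 1 or 4 of 4-18, with Cct6a joining.

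Replicate numbers did not pair the arrays by the rule used here, since 14 of 24 same-numbered pairs had deviations that correlated over 0.1 and 8 of 16 arrays correlated best with their own number. All 6 pairs of replicate 1 were over 0.1 (r from 0.20 to 0.48), and 2 or 3 of 6 for every other number. With the replicate number as a block, 2 subunits were called in 4-18 (Cct4 and Tcp1, the latter by A_42_P675372 on 1 4-18 array) and 2 in shRNA3T (Tcp1 and Cct3). A block with outlier spots kept, chosen after seeing the data, gave 2 in 4-18 and 2 in 3-44. Of all probes 26.0% were called in 4-18 and 13.8% in shRNA3T with the block, and of bright probes 42.6% and 24.8%. With the outlier spots kept as well, the shares were 26.2% of all and 43.0% of bright probes in 4-18, and 9.88% and 17.9% in 3-44. Pdrg1 passed in all 3 groups with the block (adjusted p = 0.0176, 0.0108 and 0.0183 in limma for 4-18, 3-44 and shRNA3T). With the block, 1 of the 3 mitochondrial genes was called lower in 4-18, and Pfdn5 was not called in shRNA3T.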
